A study of Mus musculus with 10 samples.

Results

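The genes described here are 10 genes that the RAS-MAPK pathway switches on in response to its own activity and that are widely used as a readout of ERK signaling: the MAPK phosphatases Dusp4 and Dusp6, the Sprouty genes Spry1, Spry2 and Spry4, the Sprouty-related genes Spred1 and Spred2, and the Pea3-type Ets factors Etv1, Etv4 and Etv5. They were chosen by symbol, and all 10 were found among the 55385 gene identifiers of the tables and passed the filter on low counts with the 13620 genes tested. RNA had been sequenced from 2 groups of cultured mouse melanoma cells, with 5 libraries each. WT31 is a line from a melanoma of a mouse with an NrasQ61K transgene under the tyrosinase promoter, which is active in melanocytes, and without INK4a, and WT31_P5IV is its subline after 5 rounds of tail vein injection and regrowth of liver metastases in culture. Both groups therefore share the mutant transgene, which the study followed in the sublines by PCR for human NRAS, and the loss of INK4a. They were grown without any drug in RPMI 1640 with 10% fetal calf serum and penicillin/streptomycin, and harvested at 50% confluence after detachment with an enzyme-free buffer. WT31_P5IV is a single subline, so an effect of hepatic passaging and the particular history of this subline cannot be told apart. The labels call the libraries biological replicates but do not say whether they came from separate thaws or days, so the p-values measure the spread between these libraries.

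ERK is the last kinase of a cascade that runs from RAS through RAF and MEK, and mutant NRAS keeps this cascade active in melanoma. Active ERK relieves repression by Capicua and activates Ets factors, and among the genes that are then transcribed are inhibitors of the cascade itself. DUSP phosphatases remove the activating phosphates from MAP kinases, Sprouty and SPRED proteins act further up at the level of receptors, RAS and RAF, and the Pea3-type factors ETV1, ETV4 and ETV5 carry the signal on to further genes. Messenger RNA levels of these genes are therefore used as a readout of ERK output, but they are not a measurement of ERK phosphorylation, which is not part of these data.

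The WT31 libraries held 24825671 to 25750639 estimated counts and the WT31_P5IV libraries 24255389 to 25547694. A level of 3 counts, taken as the limit of detection for counting error, corresponded to 0.114 to 0.129 CPM, the unit of counts scaled to library size. All values of the 10 genes were far above this limit. The first principal component separated the groups (74.5% of the variance), and on the second (6.2%) WT31 replicates 2 and 3 lay apart from replicates 4 and 5. Melanocytic markers summed to 17046 to 18443 CPM in WT31 and 22228 to 25729 CPM in WT31_P5IV, with 3 of 7 markers higher and 2 lower. Markers of liver and host cells were low in both groups. Hepatocyte markers summed to 0.227 to 0.554 and 0.402 to 1.18 CPM, macrophage and leukocyte markers to 4.84 to 6.68 and 4.22 to 6.24 CPM, endothelial markers to 0.119 to 0.416 and 0.161 to 0.421 CPM, and fibroblast and stellate cell markers to 1.97 to 2.63 and 3.12 to 3.62 CPM. The endothelial gene Cdh5 had 0 counts in all 10 libraries and the leukocyte gene Ptprc at most 2 counts. The genes of these lists called by edgeR were 2 macrophage and leukocyte markers and 2 fibroblast and stellate cell markers, all at low levels. The macrophage markers moved in opposite directions, with Cd68 at 1.37 ± 0.455 and 3.73 ± 0.638 CPM and Lyz2 at 4.33 ± 0.530 and 1.08 ± 0.156 CPM. The stellate cell and fibroblast markers Acta2 (0.275 ± 0.164 and 0.758 ± 0.0939 CPM) and Col1a1 (0.868 ± 0.200 and 1.73 ± 0.233 CPM) were higher in WT31_P5IV. A set of 5 proliferation genes summed to 1705 to 2024 CPM in WT31 and 2259 to 2437 CPM in WT31_P5IV, with 4 of 5 higher. The part of these marker and proliferation genes in the values below was not tested, and in bulk RNA a lower level in every cell and fewer cells with a high level cannot be told apart.

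The regulatory sequence in front of these genes was looked at first, since the same repressor, Capicua, is known to act on several of them. RefSeq windows of 250 bases upstream of an annotated start site (GRCm38.p6) were found for 7 of the 10 genes, in 9 windows. Dusp4, Spry4 and Etv4 had none in the table used. The Capicua octamers TGAATGAA, TGAATGGA, TCAATGAA and TCAATGGA were searched on both strands, together with their shared core of TGAATG or TCAATG. TGAATGAA and TGAATGGA were in 0 of the 9 windows and in 2.07% of all 32851 windows. The octamers with C at the second base and the core alone were added after the windows had been read, so their matches show where these letters lie and are not evidence that the genes differ from others. An octamer of this added kind was found in the windows of Dusp6 and Spry2, and the core in those of Dusp6, Spry2 and Etv5 (3.19% of all windows hold one of the 4 octamers and 17.0% a core). The Etv5 window, with 3 cores, lies in front of an internal start site, in an intron of the longer transcripts. The Ets site CCGGAAGT, the cAMP response element TGACGTCA and the AP-1 site TGAGTCA were in 0 of the 9 windows and in 2.88%, 1.55% and 4.46% of all windows. A match is a description of these letters, and binding was not measured. The windows with a match are given below as the sense strand of the gene, 5′ to 3′. They belong to 3 genes whose transcripts were lower in WT31_P5IV, but the windows of Spred1, Spred2 and Etv1, also lower, held no core. The window of Spry1 and the other window of Etv5 held no core either. Capitals mark an octamer, or a core outside an octamer, and matches on the opposite strand appear as the reverse complement. They lie at chr10:99262981-99263230 (plus strand) for Dusp6, chr14:105896820-105897069 (minus strand) for Spry2 and chr16:22438369-22438618 (minus strand) for Etv5.
Dusp6: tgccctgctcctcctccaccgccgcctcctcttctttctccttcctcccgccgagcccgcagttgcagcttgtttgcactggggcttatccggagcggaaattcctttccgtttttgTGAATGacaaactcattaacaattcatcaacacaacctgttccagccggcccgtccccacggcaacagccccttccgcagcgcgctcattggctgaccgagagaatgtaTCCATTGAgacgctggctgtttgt
Spry2: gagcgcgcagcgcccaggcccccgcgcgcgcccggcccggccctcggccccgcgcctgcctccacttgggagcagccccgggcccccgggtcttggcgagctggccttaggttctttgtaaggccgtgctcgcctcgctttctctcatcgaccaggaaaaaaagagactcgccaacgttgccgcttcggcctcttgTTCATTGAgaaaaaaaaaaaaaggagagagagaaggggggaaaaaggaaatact
Etv5: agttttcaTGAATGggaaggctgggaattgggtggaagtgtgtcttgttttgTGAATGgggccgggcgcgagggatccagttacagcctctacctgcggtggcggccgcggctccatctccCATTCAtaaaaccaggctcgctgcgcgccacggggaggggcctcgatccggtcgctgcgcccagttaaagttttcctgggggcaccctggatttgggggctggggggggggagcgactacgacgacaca
The cores of Dusp6 begin 133 and 22 bases before the start site, the core of Spry2 begins 52 bases before it, and those of Etv5 begin 242, 198 and 129 bases before the internal start.

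Most of the feedback genes were expressed at a lower level in WT31_P5IV than in WT31. Expression of 8 of the 10 genes fell, that of Spry1 rose, and Etv4 did not pass the test (quasi-likelihood F test of edgeR at a p under 0.05 after Benjamini-Hochberg, BH, adjustment over all tested genes; SE below is the standard error of a log2 fold change). The changes were widespread in these libraries. 68.5% of all tested genes had a call, 34.6% higher and 33.9% lower, so the 9 calls among 10 genes stand beside 68.5%, and the 8 lower genes beside 33.9%. The median log2 fold change of the 10 genes was -0.30, as compared to 0.01 for all tested genes, while the median size of the change was 0.30 in both (0.303 and 0.297). Libraries of WT31 and WT31_P5IV lay fully apart for 8 of the 10 genes, 7 lower and 1 higher, as compared to 54.1% of all tested genes without overlap and 27.5% without overlap and lower. Only Spry4 passed a log2 fold change of 1 in size, a filter that 9.19% of the tested genes passed, 3.69% with the lower level in WT31_P5IV as Spry4 has.

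**Figure D1:**
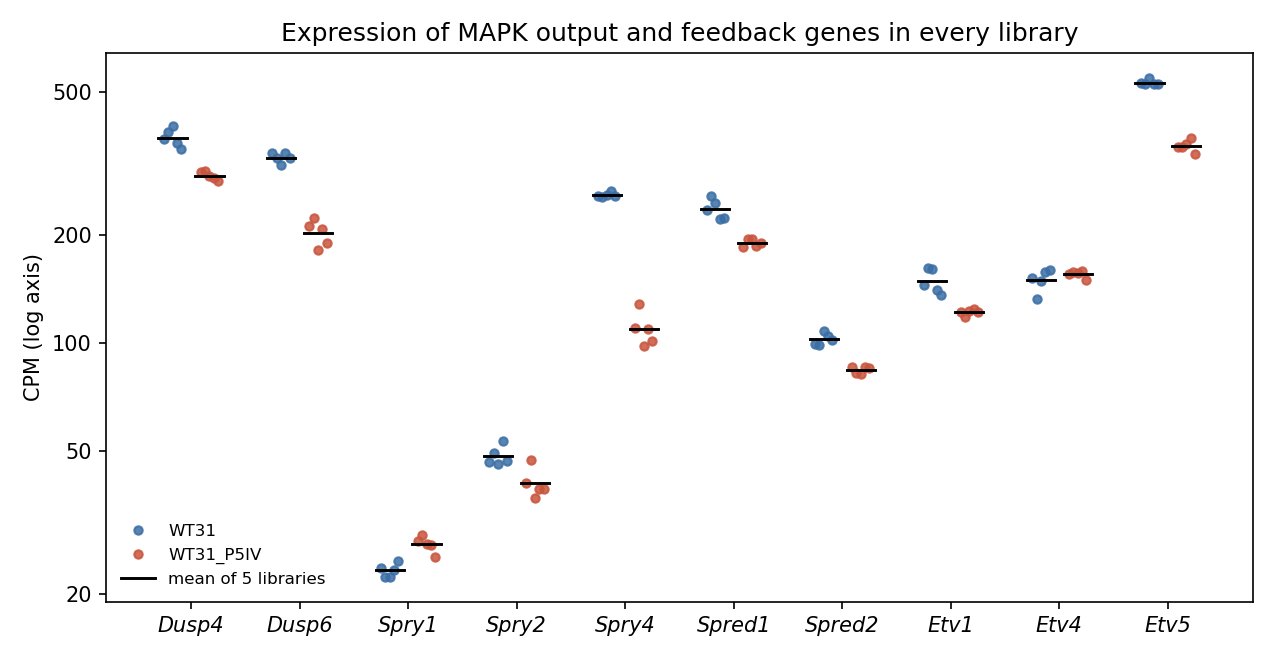
Expression of the 10 genes in each library in CPM on a log axis, with WT31 in blue, WT31_P5IV in red and a black bar at the mean of the 5 libraries of a group. The groups are apart for all genes except Spry2 and Etv4, Spry1 is the single gene with all WT31_P5IV libraries above WT31, and the largest step is that of Spry4, from a mean of 259 to 109 CPM.

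Dusp6 encodes a cytoplasmic phosphatase with a marked preference for ERK. It lies on chromosome 10 of GRCm38 from 99263231 to 99267489. The WT31 libraries 1 to 5 were at 338, 327, 313, 339.6 and 327 CPM, and the WT31_P5IV libraries at 212, 223, 181, 208 and 189.8 CPM. The lowest WT31 library was well above the highest WT31_P5IV library, and the WT31_P5IV libraries were spread more widely. The mean fell from 329 ± 10.6 to 203 ± 16.9 CPM (SD, n = 5), and the log2 fold change was -0.70 (SE 0.05, BH-adjusted p = 2.08e-08 by edgeR). 6.17% of the tested genes had a lower log2 fold change.

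Dusp4, a nuclear phosphatase that acts on ERK and on other MAP kinases, is on chromosome 8 from 34807297 to 34819894. It was at 370.4, 388, 401, 359.9 and 346 CPM in WT31 and at 299.7, 301, 291, 289 and 283 CPM in WT31_P5IV. The groups did not overlap, and the WT31_P5IV libraries were close to each other. The mean fell from 373 ± 21.8 to 293 ± 7.70 CPM (log2 fold change -0.35, SE 0.04, BH-adjusted p = 3.31e-06 by edgeR). Per transcript length, the genes stood at similar levels. Dusp4 was at 219 ± 18.9 and Dusp6 at 199.9 ± 6.29 TPM in WT31, a unit scaled to transcript length and library size, and at 152 ± 2.53 and 117 ± 7.83 TPM in WT31_P5IV. The share of Dusp6 in the sum of the pair was 47.8 ± 2.09% and 43.4 ± 1.6%, and the groups overlapped.

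Among the Sprouty genes, Spry4 and Spry2 fell and Spry1 rose, and the family had another make-up in WT31_P5IV. Spry4, an inhibitor of RAS activation downstream of growth factor receptors, is on chromosome 18 from 38586247 to 38601415. Its level was 258, 256, 258, 266 and 257 CPM in the WT31 libraries and 109.9, 128, 98.3, 109 and 101 CPM in those of WT31_P5IV. The WT31 libraries were nearly identical, and every WT31_P5IV library was at about 0.5 of that level or below. The mean fell from 259 ± 3.94 to 109 ± 11.6 CPM, a log2 fold change of -1.24 (SE 0.06, BH-adjusted p = 1.64e-10 by edgeR) or 2.37-fold. 2.80% of the tested genes had a lower log2 fold change.

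Spry2, an inhibitor of the same step and the one with an octamer in the window printed above, is on chromosome 14 from 105891947 to 105896819. The WT31 libraries were at 46.6, 49.3, 45.9, 53.5 and 47.0 CPM and the WT31_P5IV libraries at 40.8, 47.1, 37.1, 39.3 and 39.3 CPM. WT31_P5IV replicate 2 lay among the WT31 libraries, and the other 4 were below them. The mean fell from 48.5 ± 3.08 to 40.7 ± 3.83 CPM (log2 fold change -0.25, SE 0.06, BH-adjusted p = 0.00215 by edgeR).

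Spry1, a further Sprouty inhibitor, is on chromosome 3 from 37639947 to 37644598 and had the fewest counts of the 10 genes. It was at 23.7, 22.3, 22.3, 23.4 and 24.7 CPM in WT31 and at 28, 29.3, 27.6, 27.4 and 25.3 CPM in WT31_P5IV. All WT31_P5IV libraries were above those of WT31, with a small gap at WT31_P5IV replicate 5. The mean rose from 23.3 ± 1.01 to 27.5 ± 1.42 CPM (log2 fold change 0.24, SE 0.05, BH-adjusted p = 4.74e-04 by edgeR). This call was lost on the TPM scale, on which the log2 fold changes of all tested genes shifted by a median of -0.17. There Spry1 had a log2 fold change of 0.06 (adjusted p = 0.251 in limma on log2(TPM + 0.1), range over all alternatives 2.37e-04 to 0.258), or 0.20 relative to the median of all tested genes. On that scale the calls over all genes shifted from 4709 higher and 4618 lower to 2915 higher and 5946 lower, and 0 of the 10 genes were higher and 8 lower. Other transcripts, those of Gm42922 on the opposite strand, hold 23.1% of the 31-base words of Spry1. Gm42922 itself had 13 to 24 counts per library in both groups, and the strand setting of the counting is not given in the sources used here, so reads of the shared stretch cannot be told apart.

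Per transcript length, Spry4 made up 61.3 ± 0.809% of the summed TPM of the Sprouty genes in WT31 and 41.6 ± 0.874% in WT31_P5IV. The share of Spry2 was 27.6 ± 1.07% and 37.3 ± 0.747%, and that of Spry1 11 ± 0.545% and 21 ± 1.18%. The groups did not overlap for any of the 3 shares. The sum itself fell from 138 ± 3.79 to 76.1 ± 5.28 TPM. In WT31 the order of levels was Spry4 at 84.8 ± 2.20 TPM, Spry2 at 38.2 ± 2.38 TPM and Spry1 at 15.2 ± 0.345 TPM. In WT31_P5IV, the order was the same but Spry4 and Spry2 lay closer together. Spry4 was at 31.7 ± 2.79 TPM and Spry2 at 28.4 ± 2.23 TPM, with overlapping ranges but Spry4 the higher one in each of the 5 libraries, and Spry1 was below both at 15.9 ± 0.584 TPM.

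**Figure D2:**
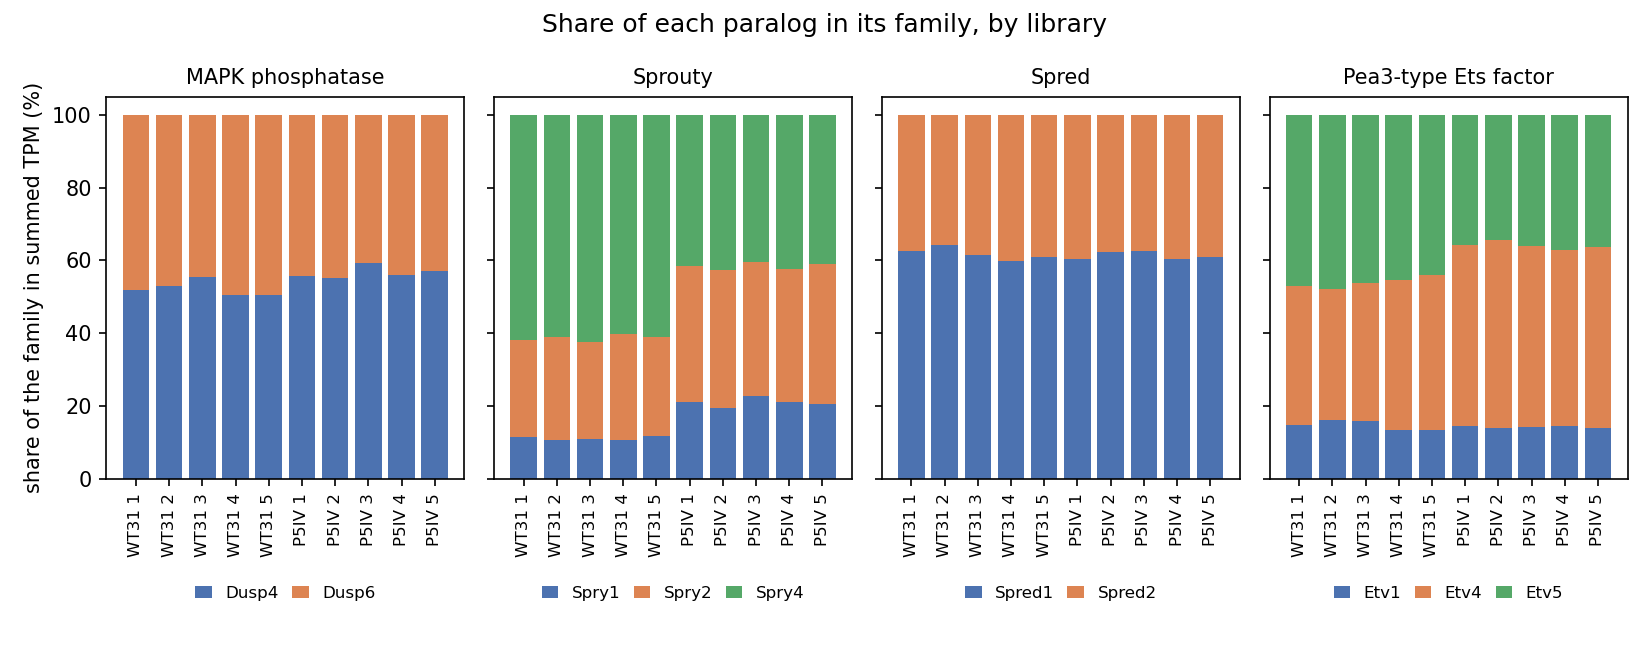
Share of each gene in the summed TPM of its family in percent, 1 stacked bar per library, for the phosphatases, the Sprouty genes, the Spred genes and the Pea3-type factors. Spry4 takes 60.2% to 62.4% of the Sprouty sum in the WT31 libraries and 40.5% to 42.7% in those of WT31_P5IV, Etv5 takes 44.1% to 47.9% and 34.5% to 37.2% of its family, and the shares of the Spred genes overlap.

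The Spred genes fell together and by similar amounts. SPRED proteins bind neurofibromin and bring it to the membrane, where it inactivates RAS. Spred1, on chromosome 2 from 117121374 to 117182279, was at 235, 257, 246, 222 and 223 CPM in WT31 and at 185, 195, 195, 186 and 189 CPM in WT31_P5IV. The groups did not overlap, and WT31 replicates 2 and 3 were the highest. The log2 fold change was -0.32 (SE 0.04, BH-adjusted p = 1.21e-05 by edgeR), from 237 ± 15.0 to 190.2 ± 4.46 CPM. Spred2, on chromosome 11 from 19924375 to 20024026, was at 99.3, 98.9, 108, 104.5 and 102 CPM in WT31 and at 85.7, 82.5, 82.1, 85.5 and 85.0 CPM in WT31_P5IV. Again no libraries overlapped. Its mean fell from 103 ± 3.81 to 84.2 ± 1.72 CPM (log2 fold change -0.28, SE 0.04, BH-adjusted p = 5.33e-06 by edgeR). The Spred sum fell from 99.7 ± 7.13 to 71.8 ± 1.63 TPM, and the share of Spred1 was 61.8 ± 1.65% in WT31 and 61.3 ± 1.10% in WT31_P5IV.

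The Pea3-type factors did not move as a block, with Etv5 and Etv1 lower and Etv4 not called. Etv5, a factor known for its part in organ branching and stem cell renewal, had the most counts of the 10 genes and is on chromosome 16 from 22381309 to 22439719. The WT31 libraries were at 529.6, 526, 548, 527 and 527 CPM and the WT31_P5IV libraries at 353, 352, 358, 373 and 335 CPM. Both groups were tight and far apart. The mean fell from 532 ± 9.29 to 354 ± 13.5 CPM, a log2 fold change of -0.59 (SE 0.03, BH-adjusted p = 2.05e-09 by edgeR). Transcripts of Gm4798 hold 30.3% of the 31-base words of Etv5, and this gene had at most 1 count in any library.

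Etv1, a factor of the same kind that is known as an ERK-stabilized regulator in melanocytic cells, is on chromosome 12 from 38779380 to 38870484. It was at 145, 161, 161, 140.3 and 137 CPM in WT31 and at 122, 118, 123, 124 and 122 CPM in WT31_P5IV. The WT31_P5IV libraries lay below all WT31 libraries and were much closer to each other. The mean fell from 149 ± 11.7 to 122 ± 2.35 CPM (log2 fold change -0.29, SE 0.05, BH-adjusted p = 9.32e-05 by edgeR). Transcripts of other genes hold 10.0% of its 31-base words.

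Etv4, the factor also called Pea3 after which the group is named, is on chromosome 11 from 101769742 to 101785371. Its level was 152, 133, 149, 158 and 159.9 CPM in WT31 and 156, 158, 157, 158 and 150.2 CPM in WT31_P5IV. The groups overlapped, with WT31 replicate 2 below all other libraries. The means were 150.3 ± 10.6 and 156 ± 3.30 CPM, and the log2 fold change was 0.05 (SE 0.05, BH-adjusted p = 0.327 by edgeR). It was between -0.05 and 0.08 over the alternatives, negative on the TPM scale, and without a call in each of them (adjusted p 0.160 to 0.988). The share of Etv4 in the summed TPM of the family was 39.1 ± 2.69% in WT31 and 49.8 ± 1.08% in WT31_P5IV, without overlap. The share of Etv5 was 46.1 ± 1.49% and 36.0 ± 0.966%, also without overlap. In each of the 5 WT31 libraries Etv5 was above Etv4, with means of 212 ± 8.18 and 180.1 ± 13.0 TPM. In each of the 5 WT31_P5IV libraries Etv4 was above Etv5, with means of 174 ± 5.47 and 126 ± 4.11 TPM. In CPM, which is not scaled to transcript length, Etv5 stayed above Etv4. There the share of Etv5 was 64.0% in WT31 and 56.0% in WT31_P5IV, and that of Etv4 18.1% and 24.7%. The order of the pair in WT31_P5IV thus depends on the transcript lengths used for TPM.

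**Figure D3:**
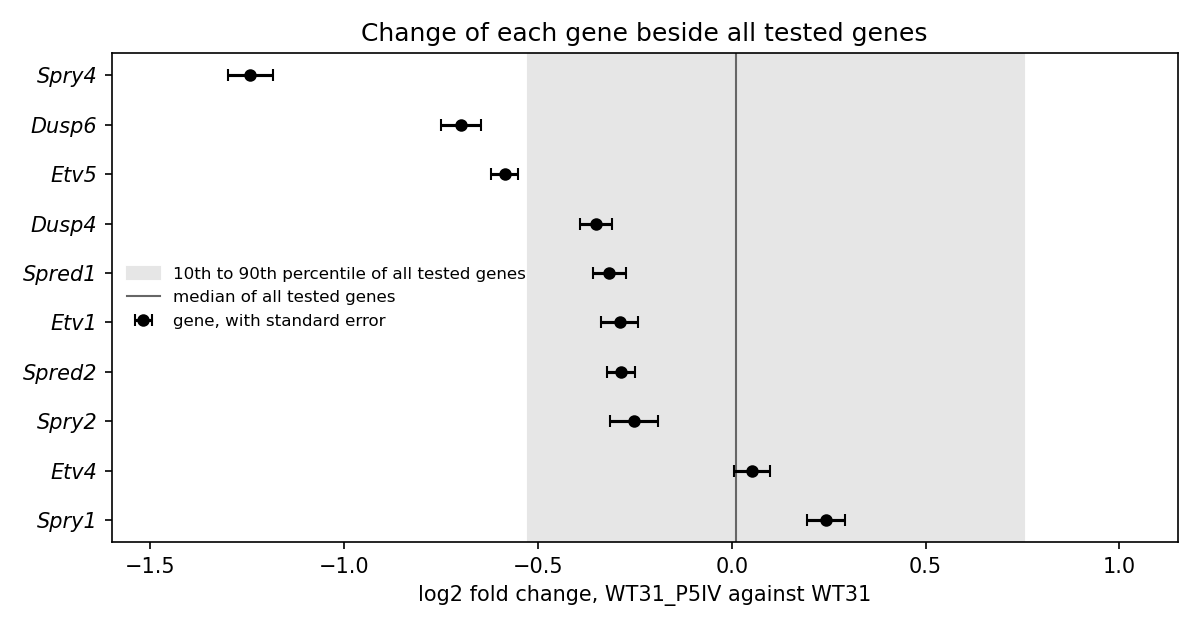
Log2 fold change of each gene in WT31_P5IV against WT31, with its standard error as the horizontal bar. The grey band holds the 10th to 90th percentile of all tested genes (-0.53 to 0.75) and the line marks their median of 0.01, and Spry4, Dusp6 and Etv5 lie to the left of the band while the other 7 genes lie inside it.

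The position of the genes was compared with the change of their surroundings, because the median log2 fold change of the tested genes differed between chromosomes. Chromosome 16, which carries Etv5, had a median of -0.42, with 277 of 408 tested genes lower (67.9%) and 42 higher. The 18 tested genes within 1 Mb of Etv5 had a median of -0.38, with 14 lower and 1 higher. Relative to the other tested genes of its chromosome, the log2 fold change of Etv5 was -0.17. Spry4 and Dusp6 lay in other surroundings. The median of the 31 tested neighbours of Spry4 was -0.002, with 8 lower and 8 higher, and that of the 6 neighbours of Dusp6 was 0.14, with 1 lower and 3 higher. The 12 neighbours of Dusp4 had a median of -0.27 and the 7 of Spred2 one of -0.44, with 6 and 5 of them lower. The 5 neighbours of Spry2 had a median of 0.42, with 0 lower and 2 higher. For the 58 neighbours of Etv4 it was 0.16, with 9 lower and 32 higher. Neighbours of Spry1 and Spred1 had medians of 0.075 and 0.05, and Etv1 had no tested neighbour. The part of these regional levels in the change of single genes was not tested.

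The ratio of estimated count to TPM gives the average effective length of the transcripts to which a gene's reads were assigned, a measure that does not use the level of the gene. On this measure 6 of the 10 genes had a call in limma (adjusted p under 0.05), 5 longer and 1 shorter, as compared to 34.8% of the 12326 genes tested for length. The 5 longer ones, Dusp4, Spry1, Spry2, Spry4 and Spred1, differed by only 1.01% to 1.53%, and Dusp4, Spry2 and Spry4 have a single annotated transcript each, so a shift of this size was present where no change of transcript is annotated. Dusp6 was the 1 shorter gene, as were 5.13% of the genes tested, and 4.45% by a log2 difference of -0.05 or less. Relative to the median gene of each library, its log2 effective length was 0.13, 0.09, 0.12, 0.10 and 0.10 in WT31 and 0.02, 0.04, 0.03, 0.05 and 0.02 in WT31_P5IV. The groups did not overlap, and the length fell by 5.18% (log2 difference -0.08, adjusted p = 5.98e-04 in limma). The annotation lists coding transcripts of 2796 and 2359 bases for Dusp6, and non-coding ones of 758 and 876 bases.

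Single libraries also deviated from their group together. Dusp6, Spry2 and Spry4 were all highest in WT31_P5IV replicate 2, at 0.14, 0.22 and 0.24 above the group mean on the log2 scale, and all lowest in WT31_P5IV replicate 3, at -0.16, -0.13 and -0.15. Over the 10 libraries, each taken relative to its group mean, Pearson's r was 0.88 for Dusp6 with Spry4, 0.85 for Spry2 with Spry4 and 0.77 for Dusp6 with Spry2. It was lower within WT31 (0.5, 0.8 and 0.59 in the same order) than within WT31_P5IV (0.92, 0.97 and 0.85). In a second set, Dusp4, Spred1 and Etv1 were above the mean in WT31 replicates 2 and 3 and below it in WT31 replicates 4 and 5, the libraries that stood apart on the second principal component. Here r was 0.82 for Spred1 with Etv1, 0.79 for Dusp4 with Etv1 and 0.76 for Dusp4 with Spred1. This likeness lay in the WT31 libraries, and r for Spred1 with Etv1 was 0.95 within WT31 and -0.58 within WT31_P5IV. Etv4 ran the other way, with r of -0.82 with Spred1 and -0.79 with Etv1. Both sets were picked because their pairs had the highest r among all pairs of the 10 genes. These are descriptions of 10 libraries of similar depth, and the labels name no preparation batch.

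**Figure D4:**
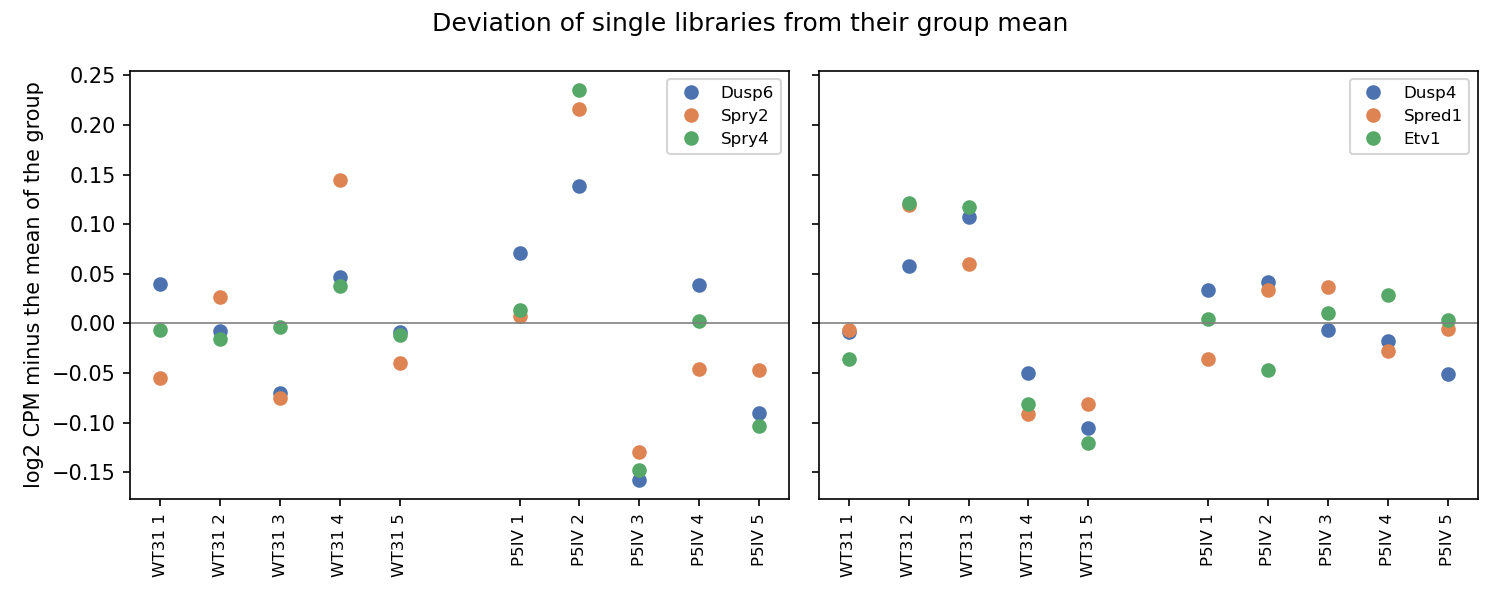
Deviation of each library from its group mean in log2 CPM, for Dusp6, Spry2 and Spry4 on the left and for Dusp4, Spred1 and Etv1 on the right, with WT31 libraries 1 to 5 followed by WT31_P5IV libraries 1 to 5. On the left the WT31_P5IV libraries 2 and 3 mark the extremes, from 0.24 to -0.16, and on the right the WT31 libraries spread from 0.12 to -0.12 while those of WT31_P5IV stay within about 0.05 of the mean.

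Across all 10 libraries, the genes with the pattern most like that of Spry4 by Pearson's r of log2 CPM were Nsg1 (0.997), Gfpt2 (0.997), Chst2 (0.996), Prkg2 (0.995) and Defb41 (0.995). The step between the groups is part of these values, and 9.51% of 13277 genes had an r over 0.95. Their log2 fold changes were -2.32 for Nsg1, -0.78 for Gfpt2, -2.01 for Chst2, -3.69 for Prkg2 and -3.67 for Defb41.

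The other genes of the pathway were taken from 7 lists with 72 symbols, of which 66 genes were tested. Of these, 34 were lower and 13 higher in WT31_P5IV by the same test, with a median log2 fold change of -0.23, as compared to 33.9% lower, 34.6% higher and a median of 0.01 among all tested genes. The split was 44 lower and 7 higher on log2(TPM + 0.1), where the calls over all genes shifted in the same direction, and 37 lower and 9 higher with limma voom without scaling or filter. Without the 3 genes on chromosome 16, the count was 31 lower and 13 higher of 63, with a median of -0.16.

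The other ERK output genes were lower in 8 of 15 cases and higher in 1, with a median of -0.28. Hmga2, a chromatin architectural protein of embryonic and tumor cells, fell from 208 ± 3.23 to 73.8 ± 2.87 CPM (log2 fold change -1.49, SE 0.04, BH-adjusted p = 1.22e-13 by edgeR). Egr1, an immediate-early transcription factor, fell from 7.48 ± 0.811 to 3.44 ± 0.342 CPM (log2 fold change -1.12, SE 0.10, BH-adjusted p = 1.07e-07 by edgeR). The receptor gene Epha2 rose from 7.30 ± 0.426 to 12.3 ± 1.20 CPM (log2 fold change 0.76, SE 0.07, BH-adjusted p = 3.94e-07 by edgeR), and Bcl2l11, which encodes the pro-apoptotic protein BIM, was at 17.1 ± 1.54 and 18.6 ± 0.605 CPM (BH-adjusted p = 0.103 by edgeR). Bcl2l11 was called, and higher, with upper-quartile scaling (log2 fold change 0.145), without WT31 replicate 2 (0.15) and without WT31 replicates 2 and 3 together (0.19). A list of immediate-early and stress genes was added because cells were detached before extraction, and it shares Fos and Egr1 with the output genes. Of its 11 tested genes, 8 were lower and 1 higher. They included Fos, which fell from 1.34 ± 0.353 to 0.684 ± 0.179 CPM at 11 to 47 counts per library, and Jund, which rose from 109 ± 13.7 to 133 ± 8.23 CPM, a call lost on the TPM scale. Fosb, at 5 to 14 counts per library, was not called. The summed level of this list overlapped between the groups, at 339 to 414 CPM in WT31 and 337 to 374 CPM in WT31_P5IV.

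The other MAPK phosphatases went both ways, with 3 of 7 lower, 3 higher and a median of 0.24. Dusp10, whose product acts mainly on the stress kinases JNK and p38, fell from 25.0 ± 0.976 to 12.2 ± 0.612 CPM (log2 fold change -1.04, SE 0.05, BH-adjusted p = 2.39e-10 by edgeR). Dusp5, a nuclear ERK phosphatase and itself an ERK target, fell from 1.71 ± 0.294 to 1.17 ± 0.255 CPM, with between 22 and 51 counts in a library (BH-adjusted p = 0.0136 by edgeR). Dusp8 and Dusp16, which act on JNK and p38, rose with log2 fold changes of 0.35 each, to 14.2 ± 1.07 and 60.8 ± 3.02 CPM, and the call of Dusp8 was lost on the TPM scale. Of the 7 other inhibitors at the level of receptor and RAS, 2 were lower and 2 higher, with a median of -0.07. Errfi1, a feedback inhibitor of the EGF receptor, fell by 0.49 on the log2 scale and the RAS GTPase activator Rasa1 by 0.27. Lrig1, which promotes the degradation of ERBB receptors, rose by 0.60, and the RAF inhibitor gene Pebp1 was at 387 ± 32.3 and 421 ± 13.6 CPM. Its log2 fold change of 0.12 was just inside the threshold (BH-adjusted p = 0.0495 by edgeR), a call that did not hold in 14 of 20 alternatives.

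In the cascade from RAS to ERK with its adaptors and scaffolds, 12 of 19 genes were lower and 3 higher, with a median of -0.29. The scaffold gene Ksr1 fell by 0.45 on the log2 scale and Araf rose by 0.30, a call lost on the TPM scale. The mouse gene Nras fell from 159 ± 7.80 to 123 ± 3.49 CPM (log2 fold change -0.37, SE 0.04, BH-adjusted p = 1.01e-06 by edgeR), and whether reads of the transgene were counted with those of the mouse gene is not known. Cdkn2a, the gene of INK4a, was at 2.94 and 3.13 CPM (BH-adjusted p = 0.446 by edgeR), and since it is not known which exons these reads came from, the values do not check the deletion.

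Of the transcription factors upstream of the feedback genes, Cic, which encodes the repressor Capicua, rose from 133 ± 5.13 to 158 ± 6.69 CPM (log2 fold change 0.24, SE 0.04, BH-adjusted p = 7.10e-05 by edgeR). The genes of its partners, Atxn1 and Atxn1l, fell by 0.23 and 0.22 on the log2 scale. Of 8 other Ets factors, 4 were lower and 1 higher. Ets2, an ERK-activated Ets factor, fell from 65.5 ± 2.43 to 26.8 ± 1.51 CPM (log2 fold change -1.29, SE 0.04, BH-adjusted p = 7.44e-12 by edgeR) and Gabpa from 90.2 ± 9.25 to 50.1 ± 2.23 CPM, both on chromosome 16. Elk3 rose by 0.11, a call lost without scaling or a filter on low counts, and lost with the opposite sign on the TPM scale, and the Ets repressor gene Erf was at 86.5 ± 6.44 and 88.0 ± 3.68 CPM (BH-adjusted p = 0.663 by edgeR), and lower with a call on the TPM scale. Of the 7 tested kinases that ERK activates, 3 were lower and 2 higher. Rps6ka2 and Rps6ka3, which encode RSK kinases, fell by 0.52 and 0.26, while Rps6ka1, which encodes another RSK, and Rps6ka4, the gene of the related MSK2, rose by 0.77 and 0.53.

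**Figure D5:**
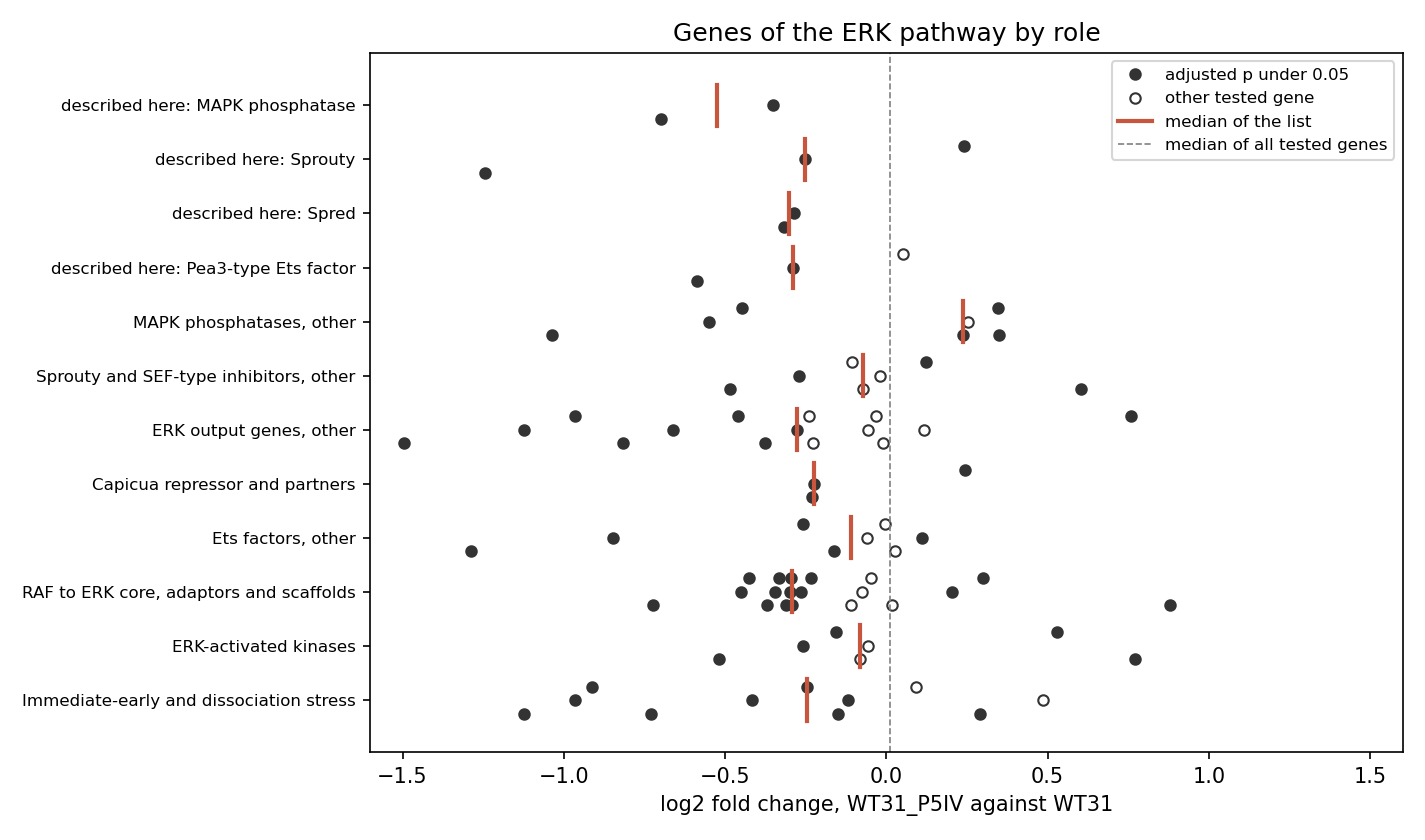
Log2 fold change in WT31_P5IV against WT31 of every tested gene of the pathway, 1 row per list, with filled points for calls by edgeR at 0.05, open points for the other tested genes, a red bar at the median of each list and a dashed line at the median of all tested genes. The medians of the cascade (-0.29) and of the other ERK output genes (-0.28) lie to the left of the dashed line, and that of the other MAPK phosphatases (0.24) to its right.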

How the data were processed

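The authors trimmed the reads with trim_galore 0.6.4, assigned them with kallisto to GRCm38.p6 transcripts and deposited estimated counts per gene. The deposited TPM values, scaled to transcript length and depth, were made by the authors with the same tool. The sources name different instruments and kallisto versions, so neither is given here, and no annotation release. Symbols and positions came from GENCODE M21 and promoter windows from RefSeq (GRCm38.p6).

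Estimated counts were rounded, filtered with filterByExpr, scaled by TMM and compared in edgeR 4.0.16 (glmQLFit, glmQLFTest; R 4.3.3) between WT31_P5IV and WT31 without covariates. Benjamini-Hochberg adjustment covered all 13620 tested genes. Log2 fold changes had no prior count, and each standard error was the size of the change divided by the square root of F. CPM used the scaled library sizes. Effective length was the log2 of estimated count over TPM, centred per library, in limma 3.58.1 on genes with at least 10 counts in every library. The limit of detection covers counting error only, while the standard errors include the spread between libraries. No pair of libraries was identical.

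The edgeR, DESeq2 and limma fits were also run on simulated data with known changes. Of simulated log2 fold changes of 0.25, 0.5 and 1 in size, edgeR found 42%, 80% and 92%. Few genes were changed in the simulation, as compared to 68.5% called in these data, so it does not check the scaling.

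Named were all 10 genes and, per list, those past a log2 fold change of 1 and otherwise the 2 highest and 2 lowest. A few genes so chosen are left out here. Of the symbols of the pathway lists, 2 matched no symbol in the table used. The members and lists were chosen with earlier results of these data known. Alternatives were DESeq2 1.42.0, limma voom with and without scaling and filter, upper-quartile scaling, other count filters, limma on log2(TPM + 0.1) and log2(TPM + 1), a replicate block, a fold filter and leaving out each library.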

Additional observations from a re-analysis of the deposited data

Results flagged for a closer look

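Among 80 groups of 5 libraries (40 genes in each of 2 lines), 7 held a library whose gap to its nearest neighbour was over 0.71 of the group's range, and chance gives about 1 in 20. Of the members, Spry4 in WT31 replicate 4 was the highest at 266 CPM, with the next at 258 CPM. Etv5 in WT31 replicate 3 was the highest at 548 CPM, with the next at 529.6 CPM. Both gaps were small beside the difference between the lines. Epha2 was highest in WT31_P5IV replicate 2 at 14.4 CPM, with the next at 12.2 CPM. Cic was lowest in WT31 replicate 1 at 124 CPM, with the next at 134 CPM. Elk3 was highest in WT31 replicate 5 at 148 CPM, with the next at 143 CPM, and lowest in WT31_P5IV replicate 5 at 151 CPM, with the next at 155 CPM. Rps6ka4 was highest in WT31 replicate 5 at 31 CPM, with the next at 28.6 CPM.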

How the results depend on the processing

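The count of 9 called genes (8 lower, 1 higher) was the same under DESeq2, upper-quartile scaling, limma voom with and without TMM, both other count filters and the replicate block, without each library in turn (9 to 9), and without WT31 replicates 2 and 3 together, a choice made after the data were seen. It was 8 on both TPM scales, where Spry1 lost its call (log2 fold change 0.06 in each). With a log2 fold change of at least 1 added to the threshold, 1 of the 10 genes remained, 1252 of all tested genes and 4 of the pathway genes, by construction of the filter. None of the 9 called genes changed its direction. Etv4, which was never called, had values of either sign, with -0.05 on both TPM scales the lowest. Among the other genes named, signs turned on the scales log2(TPM + 0.1) and log2(TPM + 1) for Elk3 (-0.036 and -0.035), Erf (-0.13 in both), Pebp1 (-0.05 in both) and the uncalled Cdkn2a (-0.095 on the first), where all tested genes shifted by a median of -0.17 and -0.16. Erf, not called on the count scale, was also slightly below 0 there under DESeq2, without scaling or filter, with every gene of at least 1 count, and without WT31 replicate 2, 3 or both. The call of Elk3 was also lost with limma voom without scaling or filter (0.04) and with every gene of at least 1 count (0.06). Leaving out single libraries moved Spry4 between -1.31 and -1.21, Dusp6 between -0.74 and -0.67, Etv5 between -0.61 and -0.57 and Spry1 between 0.21 and 0.27. Of the pathway genes 45 to 49 were called when a library was left out, and 8965 to 9444 of all genes.

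With the replicate number as a block, 9 of the 10 genes, 48 pathway genes and 9380 of all genes were called. Same-numbered libraries deviated together with r between -0.10 and 0.18, so the numbers share no more than a label, and not every library correlated best with its own number. These are the numbers of the sample titles. The library names number the WT31 libraries differently, and over the 4 numbers that both lines then share, r was between -0.16 and 0.07 (a check added after the data were seen). With shares of CPM in place of TPM, 7 of the 10 shares were without overlap, as compared to 5. All 10 genes passed the filter on low counts, so no member needed a separate test. Depth did not limit the called members, with at least 569 counts per library.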
